A study of Mus musculus with 8 samples.

Results

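The 807 chromatin regions described here carried an accessibility peak in both libraries of BV2 microglial cells kept in hypoxic co-culture with glioma cells and in none of the 6 libraries of the other conditions. They were found by merging the overlapping peaks of all 8 peak lists on chromosomes 1 to 19 and X into 40770 regions, and by keeping those that at least 1 bp of a peak touched in each hypoxic co-culture list and in no other list. They made up 1.98% of all merged regions. The peak calls of all 8 libraries chose these regions, so their presence, ranks and heights in these lists are given as a description and were not tested.

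ATAC-seq reads open chromatin through the transposase Tn5, which cuts exposed DNA and leaves sequencing adapters at the cut. BV2 is a mouse microglial line and GL261 a mouse glioma line. BV2 cells grew alone (monoculture) or were seeded onto GL261 cells at 1 BV2 cell for every 2 GL261 cells (co-culture), and each culture then spent 16 h at 21% oxygen (normoxia) or below 0.1% oxygen (hypoxia). All 4 groups came in 2 biological replicates, and the labels name no drug in any group. Hypoxic cells were fixed with formaldehyde inside the chamber, and cells were sorted before the Tn5 reaction. The labels name cells carrying the leukocyte antigen CD45 or GFP, without saying which sort each library had, so how far a co-culture library is BV2 alone is not known from them. BV2 is a cultured line, and its chromatin stands for that line.

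Open chromatin marks the stretches of DNA where nucleosomes are displaced, mostly gene promoters and distal enhancers. Enhancers are bound by transcription factors that set a cell's identity or that respond to its surroundings, whereas many promoters of housekeeping genes stay open in most cell types. In low oxygen the hypoxia-inducible factors HIF-1 and HIF-2 are stabilised and bind a short core motif near genes of glycolysis, lipid storage and blood vessel growth. Glioma cells secrete cytokines and matrix proteins that microglia sense, among them TGF-beta.

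Promoters were selected by rank among protein-coding genes whose outermost start lay inside one of these regions and whose upstream bases overlapped no gene body, which passed over Dmwd, Nup214, Rara and Ubr3 among others. Of the first 10, 6 are printed because they range from no hypoxia core to overlapping cores. Each is the 250 bases before the annotated start, 5′ to 3′ on the strand of the gene, from RefSeq on GRCm38.p6. Capitals mark the core words ACGTG or GCGTG read on either strand, the words at the centre of the hypoxia response element. The windows are those of Plekho2, a pleckstrin homology domain protein (chr9:65580088-65580337, minus strand), Cox7a1, a subunit of cytochrome c oxidase (chr7:30183921-30184170, plus strand), Slc2a8, a glucose transporter (chr2:32982084-32982333, minus strand), Polr2e, a subunit shared by the nuclear RNA polymerases (chr10:80039660-80039909, minus strand), Ftl1, the ferritin light chain (chr7:45459887-45460136, minus strand), and Psmd9, an assembly chaperone of the proteasome (chr5:123227940-123228189, plus strand).
Plekho2: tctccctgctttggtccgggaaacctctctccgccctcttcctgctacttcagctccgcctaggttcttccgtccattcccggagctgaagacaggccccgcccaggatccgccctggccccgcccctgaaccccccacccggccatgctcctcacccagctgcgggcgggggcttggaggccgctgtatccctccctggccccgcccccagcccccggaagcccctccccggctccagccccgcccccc
Cox7a1: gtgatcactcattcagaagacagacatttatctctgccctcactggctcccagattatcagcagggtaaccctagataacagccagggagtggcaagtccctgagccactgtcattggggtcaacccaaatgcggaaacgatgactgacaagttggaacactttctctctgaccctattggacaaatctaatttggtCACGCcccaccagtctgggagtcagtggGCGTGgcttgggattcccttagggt
Slc2a8: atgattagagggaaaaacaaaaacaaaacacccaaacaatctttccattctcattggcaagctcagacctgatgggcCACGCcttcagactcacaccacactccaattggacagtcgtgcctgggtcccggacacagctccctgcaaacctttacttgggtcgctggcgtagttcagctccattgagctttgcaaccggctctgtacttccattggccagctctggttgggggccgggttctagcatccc
Polr2e: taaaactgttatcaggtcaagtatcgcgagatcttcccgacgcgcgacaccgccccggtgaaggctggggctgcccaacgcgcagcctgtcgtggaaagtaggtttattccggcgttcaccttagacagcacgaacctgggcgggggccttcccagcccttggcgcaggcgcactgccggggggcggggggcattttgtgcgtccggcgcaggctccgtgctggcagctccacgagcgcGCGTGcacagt
Ftl1: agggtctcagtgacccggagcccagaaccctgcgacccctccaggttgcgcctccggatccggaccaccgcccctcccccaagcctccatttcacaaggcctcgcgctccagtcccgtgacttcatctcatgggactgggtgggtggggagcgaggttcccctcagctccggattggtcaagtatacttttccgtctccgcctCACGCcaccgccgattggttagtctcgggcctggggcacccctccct
Psmd9: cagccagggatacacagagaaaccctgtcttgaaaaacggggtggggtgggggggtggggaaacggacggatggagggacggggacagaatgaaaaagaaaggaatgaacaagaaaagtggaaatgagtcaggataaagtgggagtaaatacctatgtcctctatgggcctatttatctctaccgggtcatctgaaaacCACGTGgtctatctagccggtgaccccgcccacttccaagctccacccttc
The Plekho2 window held 0 hypoxia cores and 7 copies of the word GGGCGG, which SP and KLF factors bind. The Cox7a1 window held 2 cores and no copy of GGGCGG. Slc2a8 had 1 core whose first base lay at -173 from the start, Ftl1 had 1 at -47 and Polr2e had 1 at -11. In Psmd9 the palindrome CACGTG gave 2 overlapping matches, 1 on each strand. All 250 printed bases lay inside the accessible region for Plekho2, Slc2a8 and Polr2e, against 243 for Cox7a1, 214 for Ftl1 and 108 for Psmd9.

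Peak lists held between 9910 and 29658 peaks, and the hypoxic co-culture lists held 29658 (replicate 1) and 21633 (replicate 2). No read totals were used. The fragment number at each summit was solved from the deposited fold and −log10 p, and the commonest background ran from 0.758 fragments per position in monoculture normoxia replicate 1 to 1.45 in monoculture hypoxia replicate 1, with 1.42 and 1.17 in hypoxic co-culture. A region without a call is one that did not reach the threshold in that list, not one shown to be closed.

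The accessible regions were weak to moderate by rank. Within its own list, a peak was given a percentile by its deposited −log10 p, where 100 is the strongest. The 807 regions had a median percentile of 32.9 in replicate 1 and 25.5 in replicate 2, and the median of the lower of both values was 21.4. A total of 88 regions (10.9%) stood in the upper part of both lists, above the 50th percentile, and 6 stood above the 80th in both. At the summit they held a median of 22 fragments in replicate 1 (8 to 107) and 17 in replicate 2 (7 to 111), against 30 and 28 over all regions called in those lists. The authors' fold over background had a median of 6.55 in replicate 1 and 5.99 in replicate 2. Their median width was 488 bp, against 515 bp in regions called only in hypoxic monoculture, 523 bp in those called only in normoxic co-culture and 615 bp over all regions, whose width grows with the number of lists merged. The summits of both replicates lay a median of 45 bp apart, and within 100 bp of each other in 628 regions (77.8%).

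Rank followed the number of other libraries that had the region. Of 18895 regions called in both hypoxic co-culture lists, 807 were called in no other library, 1183 in 1, 2177 in 2 and 6372 in all 6 others. Their median lower percentiles were 21.4 with 0 other libraries, 25.3 with 1, 32.8 with 2 and 72.9 with 6. The 1183 regions that missed the rule by a single library were called in normoxic co-culture replicate 1 (324) or 2 (281), hypoxic monoculture replicate 1 (249) or 2 (310), or normoxic monoculture replicate 1 (18) or 2 (1). The number of regions depends on both hypoxic co-culture lists: with replicate 1 left out, 1750 regions met the rule, and with replicate 2 left out, 4133 did. With every list shortened to its 9910 strongest peaks, 433 regions met it, and 35 of the 807 (4.34%) were among them.

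The plain contrasts behind the rule gave larger sets. In co-culture, 2482 regions (6.09% of all) were called in both hypoxic and neither normoxic library, and 32.5% of them were also missing from all monoculture lists. Among the regions called in both hypoxic co-culture and neither hypoxic monoculture library (2376, 5.83%), 34.0% belonged to the 807. Against normoxic monoculture 7668 regions (18.8%) were gained, of which 10.5% belonged. These contrasts share the hypoxic co-culture libraries.

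**Figure D1:**
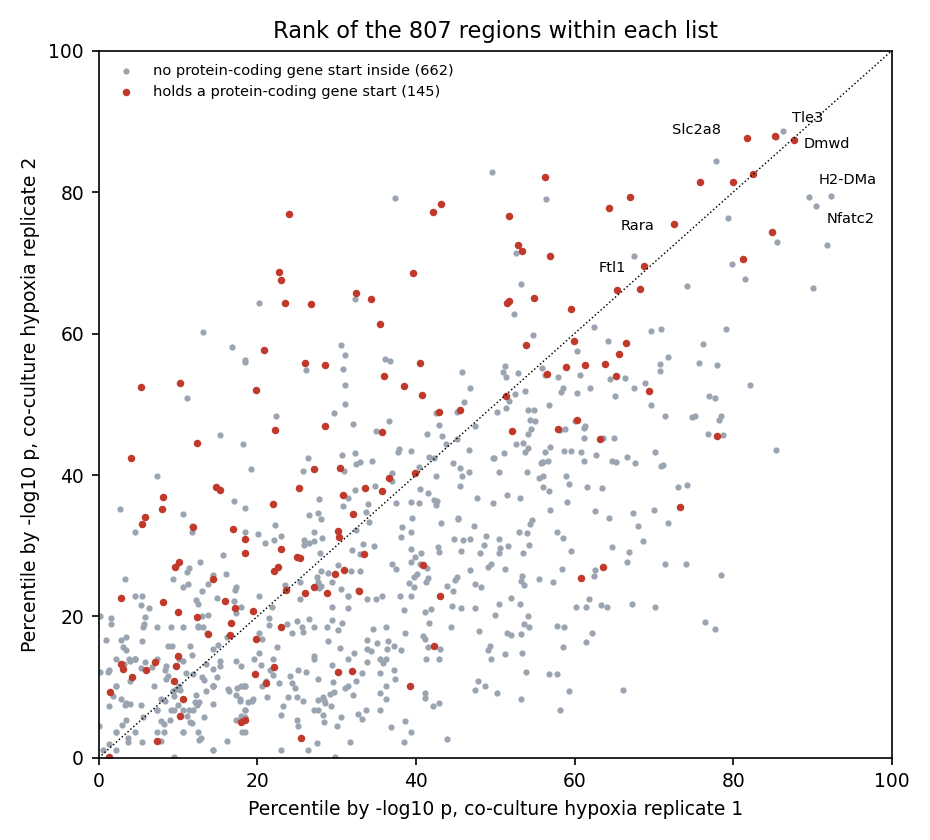
Percentile of each of the 807 regions by −log10 p within the list of hypoxic co-culture replicate 1 (x axis) and replicate 2 (y axis), where red points hold a protein-coding gene start (145) and grey points do not (662). Most grey points lie below the diagonal and most red points above it: 469 of 662 regions without a start and 47 of 145 with one ranked higher in replicate 1.

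The 807 regions ranked differently in the replicates according to whether they held a gene start. Regions without a start inside them ranked higher in replicate 1 in 469 of 662 cases (70.8%), with median percentiles of 33.9 in replicate 1 and 23.2 in replicate 2. Regions that held a protein-coding start ranked higher in replicate 1 in 47 of 145 cases (32.4%), with medians of 30.1 and 38.2. Among the other regions called in both lists, 9046 of 12000 without a start (75.4%) and 3417 of 6088 with one (56.1%) ranked higher in replicate 1. The lists differ in length and make-up: 23.8% of all regions called in replicate 1 and 30.9% in replicate 2 held a start. The part of this difference in the ranks was not tested. Across the 807 regions, the percentiles of both replicates had a Pearson r of 0.615, a description over regions that share the 2 libraries.

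Promoters took a larger share of these regions than of the other hypoxic sets. Within 1 kb of a protein-coding start lay 168 of the 807 (20.8%), close to the 20.7% of all merged regions. The share was 2.15% in 839 regions called only in hypoxic monoculture and 5.42% in 849 regions called only in all 4 hypoxic libraries. It was 17.5% in 315 regions called only in normoxic co-culture and 27.6% in 805 regions called only in all 4 co-culture libraries. On this measure the hypoxic co-culture set lay nearer to the co-culture sets than to the hypoxia sets. These are shares of regions chosen by the calls, and no test was run over regions. The start table covers 79.9% of 21631 protein-coding genes, so all these shares run low.

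**Figure D2:**
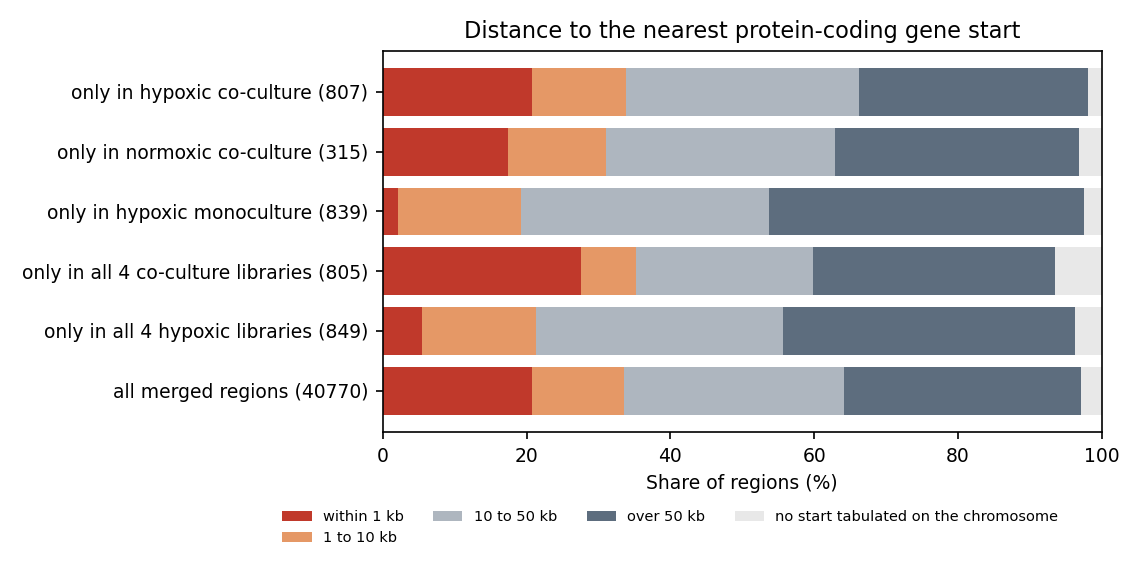
Share of regions (x axis, %) by distance to the nearest protein-coding gene start in the table, for the sets of regions named on the y axis. In the hypoxic co-culture set 20.8% lie within 1 kb of a start, against 2.15% in the set called only in hypoxic monoculture.

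The remaining regions were spread over distal sequence. Of the 807, 105 lay 1 to 10 kb from the nearest start in the table, 262 lay 10 to 50 kb away and 257 lay farther than 50 kb. For 94 of these 257 the nearest protein-coding gene has no start in the table, so some lie closer to a start than the distance says. The remaining 15 were on a chromosome for which the table used here holds no start. Inside the body of a protein-coding gene lay 506 (62.7%, against 61.9% of all regions), and 224 (27.8%) lay in no annotated gene. Either end of any annotated gene was within 1 kb of 254 regions (31.5%, exact 95% binomial interval 28.3% to 34.8%, for counting error only), against 30.6% of all regions. That share was 19.02% when replicate 2 of hypoxic co-culture was left out and 58.0% in lists of equal number, where the share over all regions was 41.0%. The regions seldom adjoined ubiquitously open chromatin: 34 (4.21%) lay within 10 kb of a region called in all 8 libraries, against 9.54% of the other regions not called in all 8.

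Of the 20 strongest regions, 10 covered a protein-coding start in the start table. The highest lower percentile belonged to the start of Dmwd, a WD-repeat protein gene (chr7:19075938-19076372), at percentiles 87.6 and 87.4 with 64 and 63 fragments in replicates 1 and 2. Next came a region (chr9:61370428-61370852) over a start of the noncoding gene Gm34157 and 1474 bp outside Tle3, which encodes a Groucho-family corepressor, with 72 and 81 fragments. The third overlapped Cntrob, a centriole protein gene, and its neighbour Trappc1, a vesicle-tethering subunit (chr11:69323713-69324096, 70 and 76 fragments). It touched a gene end, and the nearest start in the table, of Gucy2e, lay 86691 bp away. Both replicates gave near-equal counts at these sites. Plekho2 followed with 74 and 80 fragments, Cox7a1 with 47 and 46, Slc2a8 with 51 and 59, and Polr2e with 45 and 46. These 4 regions cover the promoters printed above.

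Several of the strongest regions lay inside protein-coding genes and covered no start in the table. H2-DMa, a chain of the chaperone that loads peptides onto MHC class II (chr17:34135318-34135777), had 72 fragments in replicate 1 and 45 in replicate 2. Nfatc2, a calcineurin-activated transcription factor (chr2:168549291-168549720, 40645 bp from a start of the gene), had 107 and 68, the highest count of the set in replicate 1. Rad51b, a recombination protein (chr12:79600199-79600683, 302848 bp from a start), had 45 and 37. In all 3, replicate 1 was the higher. Further ones lay in Abcd4, a lysosomal cobalamin transporter whose own start is not in the table and whose region touched a gene end, Rbks, ribokinase, and Mtmr3, a phosphoinositide phosphatase, with lower percentiles of 79.4, 72.9 and 69.8. Outside genes lay the regions nearest Sfn, the 14-3-3 sigma protein (533 bp away, 39 and 48 fragments), and Poll, DNA polymerase lambda (3684 bp away, 83 and 45 fragments).

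Starts were covered at the other genes of the top 20. Nup214, a nuclear pore protein, had 38 and 44 fragments. Btbd2, a BTB-domain protein, had 63 and 48, and Ubr3, a ubiquitin ligase, had 55 and 40. Rara, the retinoic acid receptor alpha (chr11:98937195-98937754), had 66 and 64 fragments, and Ftl1 had 71 and 61. The fold of Ftl1 was low, 4.95 and 5.56, and that of Rara was 5.84 and 6.37, beside local backgrounds of 13.5 and 10.1 fragments at Ftl1 and 10.5 and 9.2 at Rara. The median background over the 807 regions was 2.26 and 1.82 fragments.

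The weakest 5 regions show what entered at the threshold. They lay nearest to Exoc3l4, a member of the exocyst-related SEC6 family (percentiles 0.0590 and 4.45), Antkmt, a lysine methyltransferase of the mitochondrial ADP/ATP carrier (1.28 and 0.104), Socs3, the suppressor of cytokine signalling (29.9 and 0.116), Ppm1h, a protein phosphatase (9.49 and 0.132), and Tvp23b, a Golgi membrane protein (0.182 and 12.1). The region nearest Socs3 lay 33626 bp from the gene and held 22 fragments in replicate 1 and 8 in replicate 2. Each of the 5 was near the bottom of at least 1 list.

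The highest-ranked region within 1 kb of a tabulated start was taken from each chromosome that had one, which left out chromosomes 12 and 18. Besides those above, it was at Rps19bp1, a nucleolar regulator of SIRT1 (chromosome 15, 36 and 47 fragments), Hoxa5, a homeobox factor (chromosome 6, 33 and 32), Psmd9 (chromosome 5, 33 and 30), Ssh3, a cofilin phosphatase (chromosome 19, 27 and 27), and Polr1e, a subunit of RNA polymerase I (chromosome 4, 29 and 30). On chromosome 16 it was Bdh1, a ketone body dehydrogenase (38 and 29 fragments), on 17 Zfp563, a zinc finger gene (32 and 26), and on 3 Iqgap3, a scaffold of the cytoskeleton (39 and 28). Chromosomes 1, X and 13 had Dennd1b, a Rab exchange factor (37 and 35), Gpkow, a splicing protein (20 and 18), and Sox4, a developmental transcription factor (36 and 19). Chromosomes 8 and 14 had only low-ranked ones, at Cdk10, a cyclin-dependent kinase (17 and 15), and Klhl33, a kelch-like gene (30 and 15). Of these regions, those at Bdh1 and Klhl33 lay 874 and 798 bp from the start, and the others covered it.

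Some genes held more than 1 region. Of 501 protein-coding genes with a region inside, 30 had at least 2, and Rad51b had 3. Kdm6b, a histone H3K27 demethylase, had 2, with 49 and 53 fragments at the stronger (chr11:69408667-69409920) and 43 and 49 at the other (chr11:69417672-69418276). Fkbp5, a glucocorticoid-induced co-chaperone chosen here after its values were seen, had 1 region over its start (29 and 50 fragments) and 1 inside the gene (19 and 12). Ppard, the nuclear receptor PPAR-delta, also chosen after its values were seen, had 1 over its start (28 and 45) and 1 inside (24 and 25). The region at the start was the higher-ranked of the pair in both Fkbp5 and Ppard, and the other genes with at least 2 regions were not tallied for this.

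Genes of 12 lists for this tissue and treatment were searched for a region within 10 kb. Such a region was near 27 of 337 matched genes (8.01%), against 832 of 21631 protein-coding genes (3.85%). List genes more often had any called region that close, 92.0% of them against 70.3%. Counted over the regions near genes, 29 of 1020 near list genes were among the 807 (2.84%), against 2.06% of 29804 near any protein-coding gene, so the list genes and all genes lay closer per called region than per gene. No list was tested, and the numbers below are counts.

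Near targets of the hypoxia-inducible factors lay 4 regions among 42 genes, or 4 of 111 regions near them (3.60%). Angptl4, a secreted inhibitor of lipoprotein lipase, had a region 1766 bp outside the gene (chr17:33783341-33784027) with 32 fragments in replicate 1 and 25 in replicate 2. Pfkfb3, which makes the activator of glycolytic phosphofructokinase, had one inside the gene (chr2:11535467-11535792), 18137 bp from a start, with 14 and 26. Hilpda, a lipid droplet protein, had one 3174 bp outside (31 and 21 fragments), though the gene Fam71f2 was nearer. Ddit4, an inhibitor of mTOR signalling, had one 5808 bp outside (24 and 17 fragments) at the low percentiles 10.3 and 9.62. None of these 4 regions lay in the upper part of both lists.

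Stress-response genes had 4 regions among 27 genes (14.8%), Ddit4 among them, or 4 of 80 regions near them (5.00%). Near Atf4, the transcription factor of the integrated stress response, lay the region that covers the start of Rps19bp1, 6669 bp outside Atf4. Hspa5, the endoplasmic reticulum chaperone BiP, had a region 423 bp outside the gene that was nearest to Rabepk (chr2:34776952-34777912), with 35 and 46 fragments. Ern1, the stress sensor IRE1, had one inside the gene with 13 and 12. At 2 of these 3 genes the nearest gene was another one.

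The TGF-beta and matrix list had the most genes with a region, 5 of 30 (16.7%), and 5 of 98 regions near its genes (5.10%), close to the stress list. Cd44, a hyaluronan receptor, had one inside the gene (chr2:102873084-102873692) with 44 and 22 fragments. Smad3, which carries the TGF-beta signal to the nucleus, had an intragenic one (chr9:63706221-63706685) with 22 and 16. Fn1, fibronectin, had one that overlapped the gene and touched a gene end, with 23 and 15. The start of Fn1 is not in the table, so whether this region covers it was not read. In these 3 the count of replicate 1 was the higher. Tgfbr2, the type II receptor, had one 9910 bp outside the gene (27 and 18 fragments), nearest to Gadl1, and Mmp9, a matrix protease, had one 4901 bp outside (17 and 13 fragments) at Slc12a5.

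Tnfaip3, the NF-kB inhibitor A20, had one inside the gene (chr10:19008943-19009698), 2265 bp from a start, with 25 and 30 fragments. Ptgs2, cyclooxygenase 2, had one 6993 bp outside the gene (21 and 17). These were 2 of 30 inflammatory genes (6.67%) and 2 of 73 regions near them (2.74%). Stat2, a transducer of type I interferon signals, was the 1 of 31 interferon genes (3.23%, and 1 of 60 regions near them, 1.67%), through a region 5273 bp outside it that lay 42 bp from Il23a (24 and 16 fragments). Of 30 genes of microglia and macrophage identity, 0 had such a region, and so 0 of 81 regions near them. Over all protein-coding genes the shares were also low, 3.85% of genes and 2.06% of the regions near them. With so few genes and regions, a count of 0 cannot show whether identity genes had fewer than other genes.

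Among AP-1 and immediate early factors, 2 of 23 had one, or 2 of 60 regions near them (3.33%). Fosb had its start covered (chr7:19310034-19310386) at percentiles 10.2 and 53.0, with 23 and 42 fragments, and Fosl1 had one 4397 bp away at the gene Fibp (16 and 16). Oxygen-sensitive chromatin modifiers had 3 of 30: Kdm6b, Tet1, a 5-methylcytosine dioxygenase (29 and 15 fragments), and Hdac4, a histone deacetylase (24 and 13). Kdm6b is the one of the 3 that ranked above the 50th percentile in both lists, at 52.4 and 62.8 for its stronger region.

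Lists for migration and lipids had 2 genes each. Actn4, an actin crosslinker, had its start covered (chr7:28962074-28962656) with 34 and 44 fragments, and a second region with 23 and 14. Vav2, a guanine nucleotide exchange factor, had one 297 bp from a start (chr2:27426645-27427311) with 34 and 39. These were 2 of 30 migration and phagocytosis genes, with 3 of 160 regions near them (1.88%). Pparg, the lipid-sensing nuclear receptor, had an intragenic one (11 and 10 fragments), and Fasn, fatty acid synthase, one 8480 bp outside (21 and 13), nearest to Ccdc57, out of 27 lipid and lysosome genes. Glial and neural genes had 2 of 25 and 2 of 78 regions near them (2.56%), inside Nfia, a gliogenic factor (34 and 22), and Ncam1, a neural adhesion molecule (19 and 18). The mesenchymal list had 1 of 21 and 1 of 37 regions near its genes (2.70%). It overlapped Tead1, an effector of the Hippo pathway (19 and 10), and touched a gene end. The start of Tead1 is not in the table, so whether this region covers it was not read.

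Families counted after the regions had been seen add to this. Of 81 cytosolic ribosomal protein genes, 8 (9.88%) had a region within 10 kb, against 3.85% of all protein-coding genes, and 5 had their start covered. Shares per called region were not counted for the families. Rps18 had 29 fragments in replicate 1 and 39 in replicate 2, Rps15 had 17 and 27, and Rps28 had 23 and 23. Respiratory chain subunit genes had 3 of 84 (3.57%), with Cox7a1 and Uqcr11, a complex III subunit (15 and 28 fragments). Hox genes had 6 of 39 (15.4%), all in the HoxA cluster, where neighbouring genes share regions: the region at Hoxa5 also lies in Hoxa3. Zinc finger genes named Zfp had 14 of 397 (3.53%), near the share of all protein-coding genes.

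A promoter window, 250 bases before to 50 after a start, had its start inside one of the 807 regions in 195 cases, for 180 genes and 160 regions. These were GC-rich, with a median of 60.3%, against 61.3% for 10836 windows whose start lay in any called region and 53% for all 32619 windows. The hypoxia core (ACGTG or GCGTG, either strand) was present in 135 of the 195 (69.2%), against 65.2% of the windows in any called region and 44.0% of all windows. It was present in 65.3% of the 274 windows in regions called only in all 4 co-culture libraries. In regions called only in all 4 hypoxic libraries it was present in 34 of 48 windows (70.8%), in those called only in hypoxic monoculture in 7 of 12 (58.3%) and in those called only in normoxic co-culture in 41 of 65 (63.1%). No set was matched on GC content.

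Other words were read the same way. GGGCGG, bound by SP and KLF factors, was in 62.6% of the 195 windows and 64.6% of windows in any called region. GAGGAAG, an ETS word that the myeloid factor PU.1 can bind, was in 12 of the 195 (6.15%), against 14.1% in any called region and 13.4% of all windows. It was in 9.85% of windows in regions called only in all 4 co-culture libraries and 10.4% for all 4 hypoxic libraries. For regions called only in normoxic co-culture it was in 12.3%, and for those only in hypoxic monoculture in 4 of 12 windows. TGTGGTT, a RUNX word, was in 15 (7.69%), against 3.92% and 5.29%. Overlapping windows of the same gene count separately, as those of Antkmt do for this word. The E-box CACGTG, which overlaps the hypoxia core, was in 26 (13.3%), against 10.6% and 7.20%. TGANTCA of AP-1 was in 13 (6.67%), against 5.46% and 7.85%, and TGACGTCA, the cAMP response element, in 9 (4.62%), against 3.64% and 1.80%. The NF-kB words were in 0 of the 195 windows, against 0.554% of windows in any called region and 0.512% of all windows. A match is the presence of letters, not a bound site, and these windows cover only the regions at starts.

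**Figure D3:**
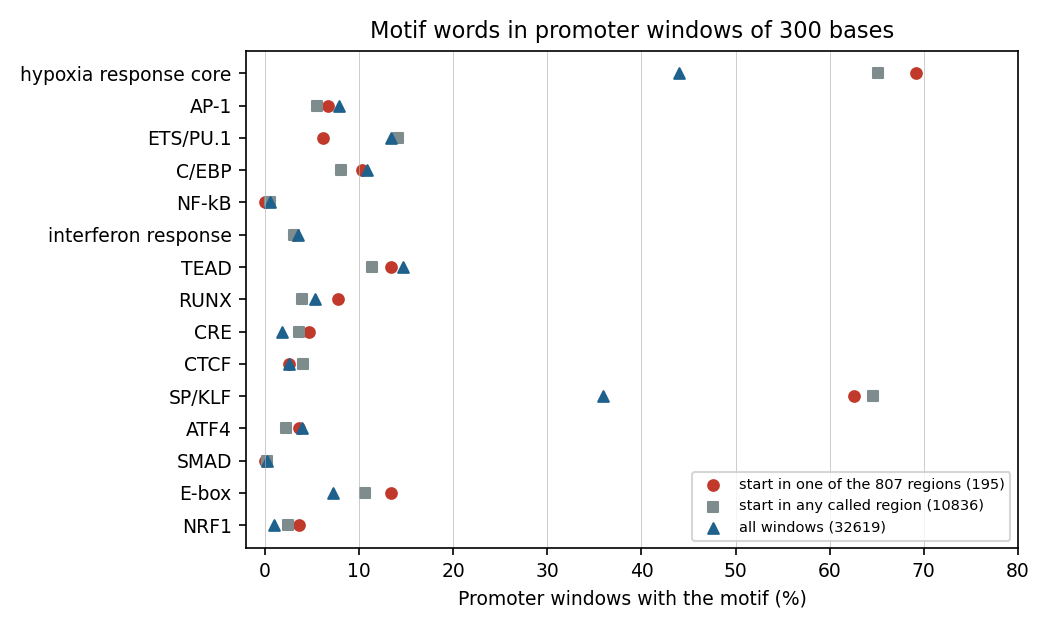
Share of promoter windows of 300 bases (x axis, %) that hold each motif word on either strand (y axis), for the 195 windows whose start lies in one of the 807 regions and for the comparison sets in the legend. The hypoxia response core stands at 69.2% in the 195 windows and at 65.2% in windows of any called region, and the ETS/PU.1 word at 6.15% against 14.1%.

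The microRNA precursor Mir5625 was found inside one of these regions. A mature sequence of it is printed with the seed, bases 2 to 8, in capitals, to identify it, and no microRNA level was measured.
mmu-miR-5625-5p: cCCGGAAGuucuugaguagga
Its hairpin (chr5:30647936-30648015, GRCm38) lies in a region over the start of Slc35f6 with 35 fragments in replicate 1 and 24 in replicate 2.

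The regions were unevenly spread over the chromosomes. Chromosome 11 had 82 of them, 3.30% of its 2485 regions, chromosome 17 had 54 (3.20%), chromosome 10 had 54 (3.06%) and chromosome 2 had 81 (2.52%). Chromosome X had 12 (0.915% of its regions) and chromosome 14 had 20 (1.18%), against 1.98% over all. The densest megabase, at 80 to 81 Mb of chromosome 10, held 9 among 49 regions, from Polr2e, Rps15 and Uqcr11 to Btbd2 and Gng7. The libraries differed in their chromosome shares as well: chromosome 10 took 2.80% to 3.85% of the peaks in the monoculture lists and 4.17% to 4.41% in the co-culture lists, and chromosome 11 took 5.57% to 5.94% and 6.13% to 6.88%. On these 2 chromosomes every co-culture list lay above every monoculture list. On chromosome 17 the lists overlapped, at 3.95% to 4.29% and 3.93% to 4.32%, as they did on chromosome 2, at 7.73% to 8.18% and 7.87% to 8.07%. The part of these library shares in the chromosome counts was not tested. Gene density also differs between chromosomes.

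**Figure D4:**
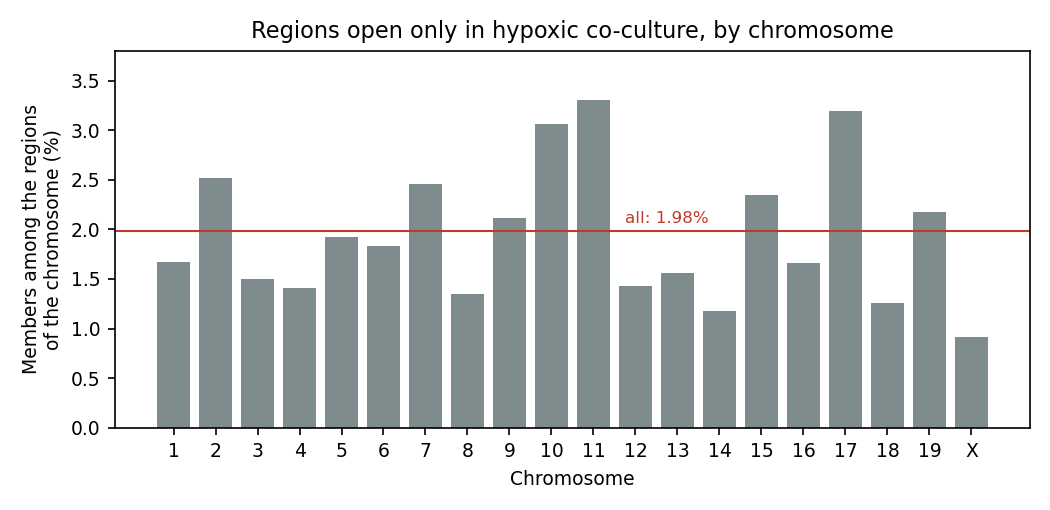
Share of the merged regions of each chromosome that belong to the 807 (y axis, %), by chromosome (x axis). The red line is the share over all chromosomes, 1.98%, and the bars of chromosomes 10, 11 and 17 reach 3.06% to 3.30%.

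Peaks around the regions were compared between libraries. For each library, the share of the 807 regions with another called region within 10 kb was counted. A neighbour could itself be one of the 807, which the rule fixes to be called in hypoxic co-culture, so the count was repeated without such neighbours. The share was 11.8% and 8.92% in monoculture normoxia, 28.7% and 29.2% in monoculture hypoxia, 27.9% and 27.0% in co-culture normoxia, and 38.7% and 28.0% in co-culture hypoxia. Replicate 1 of hypoxic co-culture was above all other libraries, and replicate 2 lay below both hypoxic monoculture libraries. The mean was 33.3% ± 7.54 (SD, n = 2) in hypoxic co-culture and 22.3% ± 9.31 (SD, n = 6) in the other libraries, a difference of 11.1 percentage points, and 9.58 without neighbours from the 807. In lists of equal number, where the regions were chosen anew, it was 7.04 points, and 4.97 without neighbours from the set. These are descriptions with no test, since the regions were chosen as called in these same 2 libraries, which favours a positive difference. List length moves with this share: over all other regions it was 20.1% and 15.7% in monoculture normoxia and 40.3% and 31.2% in hypoxic co-culture. In every library the share of the 807 was below that of the other regions. The ratio ran from 0.569 in monoculture normoxia replicate 2 to 0.959 in hypoxic co-culture replicate 1. Within 50 kb it ran from 0.743 to 1.03 in the same libraries.

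**Figure D5:**
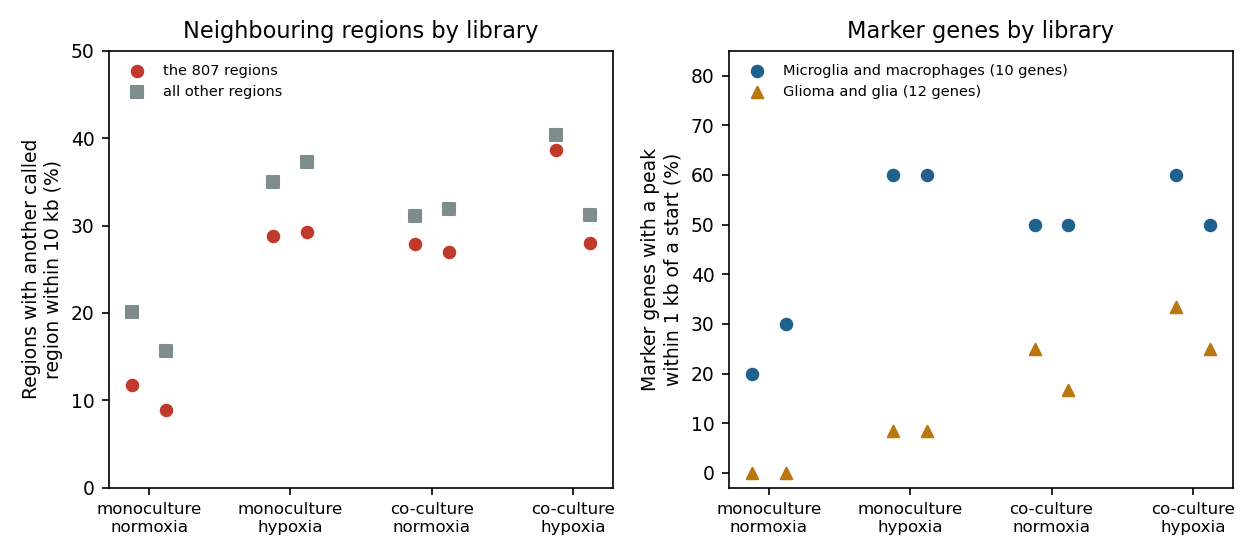
Left, share of regions with another called region within 10 kb (y axis, %) in each library, for the 807 regions (red) and all other regions (grey), with both replicates of each group as points. Right, share of marker genes with a peak within 1 kb of a start (y axis, %), where the glioma and glia markers run from 0 in monoculture normoxia to 33.3% in hypoxic co-culture replicate 1.

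Markers were read at gene starts as a check of the cell label. Ptprc, which encodes CD45, one of the 2 sort markers that the labels name, had a peak within 1 kb of a start in all 8 libraries. Of 10 microglia and macrophage markers with an annotated start, 2 and 3 had such a peak in monoculture normoxia, 6 and 6 in monoculture hypoxia, 5 and 5 in co-culture normoxia and 6 and 5 in co-culture hypoxia, and Aif1, Itgam, C1qb and C1qc had one in no library. Of 12 glioma and glia markers, 0 and 0 had one in monoculture normoxia, 1 and 1 (Vim) in monoculture hypoxia, 3 and 2 in co-culture normoxia and 4 and 3 in co-culture hypoxia. The neural stem cell factor Sox2 had one in 3 of 4 co-culture libraries and in no monoculture library, Nes in 2 co-culture libraries, and Gfap and Olig2 in no library. Pdgfra, Cspg4, Nfia, Egfr and Fabp7 also had one in no library, and Vim had one in both hypoxic monoculture libraries. The part of these marker calls in the 807 regions was not tested. Of 4 mesenchymal markers 0 had a peak in any library. Within 10 kb of the markers lay such a region at 0 of 15 microglial, 1 of 14 glial (Nfia) and 0 of 6 mesenchymal genes. A region just beyond that distance, chosen after its values were seen, lay 11838 bp outside Sox2, in the noncoding gene Sox2ot (chr3:34664299-34664766), with 36 and 26 fragments at percentiles 60.7 and 54.1. The other markers were not counted beyond 10 kb, so this region says nothing of the marker set. Within 50 kb, 8.59% of all protein-coding genes had a region.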

How the data were processed

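Chromatin accessibility (ATAC-seq) was measured in 8 libraries, 2 biological replicates in each of 4 groups. Per the submitters' processing notes, Trimmomatic 0.36, HISAT2 2.1.0, Picard, SAMtools, deepTools, MACS2 2.1.1.2 and the build mm10 were used, with no settings given in the sources used here, so the Tn5 shift, filters and duplicates could not be checked. The authors deposited a separate peak list for each library, with no pooling of replicates. Per the deposited lists, each peak has a score, a fold enrichment (the summit as a ratio over local background), a −log10 p and a −log10 q, and the lowest −log10 q was just above 2 in every list. The deposited folds, scores and −log10 values are the authors', and were used for ranks inside a single list, filters and description. Percentiles and solved fragment numbers of both hypoxic co-culture lists are set side by side as a description.

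Peaks on chromosomes 1 to 19 and X were merged where they overlapped. A region was called in a library if a peak of it overlapped by 1 bp or more. Fragments n and background b at a summit were solved from fold = (n + 1)/(b + 1) and the upper Poisson tail beyond n given b, to within 0.001 of the deposited −log10 p, for 99.8% to 99.9% of each list. Genes, starts, promoters and microRNAs were RefSeq's on GRCm38.p6, the assembly mm10 is built on. A region was near a gene within 10 kb of its body, and near a start within 1 kb. No genome sequence was used here, so motifs were read in promoter windows only. A planned exact permutation test of the neighbour share over libraries is not used, since the calls of the same libraries chose the regions, and the share is given as a description. The labels give no batch.

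Named regions are the 20 with the highest and the 5 with the lowest lower percentile, those near a list gene, and the highest-ranked one within 1 kb of a start on each chromosome; others are said to be chosen after their values were seen. The regions and the gene lists were chosen with earlier results of these data known. For 1 region and the microRNA in it, the result is not reported here. Alternatives were a −log10 q of at least 5, lists of equal number, 50% cover of a region, windows of 250 bp around summits, no peak wider than 10 kb, other distances, leaving out each library, a replicate block and other members left out as neighbours. The software was Python 3.11.15 with pandas 2.3.3, scipy 1.17.1, numpy 2.4.6 and, for figures, matplotlib 3.10.9.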

Additional observations from a re-analysis of the deposited data

Results flagged for a closer look

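Chromosome Y lay outside the rule, and its peaks were counted separately. The lists of co-culture normoxia held 10 and 10 peaks there and those of co-culture hypoxia held 11 and 8, above the 7 and 7 of monoculture normoxia and the 5 and 6 of monoculture hypoxia. They merged into 14 regions, of which 3 were called in all 8 libraries, 11 in co-culture libraries and in no monoculture library, and 0 in monoculture libraries alone. None of the 14 was called in both hypoxic co-culture libraries and nowhere else. The cause was not tested.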

How the results depend on the processing

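The number of regions stayed within 1.5 times of 807 in 10 of 13 alternatives, though a like number need not be the same regions. At a −log10 q of at least 5 it was 793, and 643 of the 807 (79.7%) were kept. It was 433 in lists of equal number, and between 811 and 4133 when 1 library was left out, the extremes being without normoxic monoculture replicate 2 and without hypoxic co-culture replicate 2 (1750 without its replicate 1). Leaving a library out could not lower the number. The median lower percentile, 21.4, was 69.2 in lists of equal number and from 15.3 (without hypoxic co-culture replicate 1) to 22.9 with 1 library left out. The share near gene ends, 31.5%, was 36.9% at a −log10 q of at least 5 (32.2% over all regions), 58.0% in lists of equal number and 50.4% within 5 kb, and ran from 19.02% without hypoxic co-culture replicate 2 to 38.5% without normoxic co-culture replicate 2. List genes with a region were 49 within 50 kb, where 8.59% of all protein-coding genes had one, against 27 within 10 kb. Within 10 kb they were 21 in lists of equal number, where 2.98% of all protein-coding genes had one, and 25 at a −log10 q of at least 5. The neighbour difference, 11.1 points, a description with no test, was 7.04 in lists of equal number, 18.5 within 50 kb and from 8.66 to 16.3 with 1 library left out. Leaving the other regions of the set out as neighbours, an alternative chosen after seeing the data, gave 9.58, and 4.97 in lists of equal number, also chosen after seeing the data.

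The labels give the same replicate numbers to all groups. Replicate-1 deviations from the group means, over 6372 regions called in all 8 libraries, had correlations between groups from -0.0348 to 0.146, so the numbers were not taken to pair the libraries. With a replicate block the neighbour difference stays 11.1 points by construction, and no test of it is used.

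With 2 libraries a group and thresholded lists of unequal depth, a missing call does not show closed chromatin. Weak regions make up most of the set, and the lists of equal number keep few of them.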
